A study of Danio rerio with 18 samples.

Results

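The nuclear-encoded genes of the mitochondrial respiratory chain were examined in RNA enriched for new transcripts from whole zebrafish embryos. Members were the genes whose symbol begins with nduf, sdha to sdhd, uqcr, cox4 to cox8 or atp5, that are not mitochondrially encoded and that have a row in the comparisons the authors deposited. This gave 84 genes of 17135 in those tables. A further 18 symbols of the same families had no row there and were not analysed here. By complex, the members comprised 32 genes of complex I, 4 of complex II, 8 of complex III, 11 of complex IV and 17 of ATP synthase, and 12 assembly or regulatory genes.

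Mitochondria make ATP by passing electrons along complexes I to IV and using the resulting proton gradient to drive ATP synthase. Most subunits are encoded in the nucleus and imported, while a small set is made from mitochondrial DNA, and both sets are joined in all complexes except complex II, whose subunits are all nuclear. The egg supplies the early fish embryo with mitochondria and with many maternal mRNAs, and the embryo's own genome is switched on during the blastula stages.

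All embryos were wild type, had their egg coats removed with Pronase and received s4UTP, a modified nucleotide that is built into RNA made after injection. Labelled RNA was biotinylated, captured on beads and treated with IAA, which marks the modified bases as point changes in the reads. The 6 groups were CDK9 overexpression (s4UTP with cdk9 mRNA) at the 256-cell stage, CDK9 overexpression at the 1024-cell stage, MiR430 injection (s4UTP with MiR430 microRNA) at the 256-cell stage, MiR430 injection at the 1024-cell stage, and s4UTP alone, called untreated here, at the 256-cell and at the 1024-cell stage. Each group had 3 biological replicates, which gives 18 libraries. CDK9 is a kinase that, as part of P-TEFb, releases paused RNA polymerase II, and miR-430 is an abundant early zebrafish microRNA that clears maternal mRNAs. No group received a control mRNA or control microRNA, so what injected RNA of any kind does cannot be told apart here from what CDK9 or MiR430 does. The series asks how transcription bodies, where transcription is concentrated in early nuclei, relate to CDK9. None of the 18 count columns could be matched to a labelled sample, so values per library are not given, and all results rest on the 4 comparisons of an injected group with untreated embryos of its stage.

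According to the authors' deposited table, the blastula genes nanog, pou5f3 and sox19b had mean normalized counts of 1563, 362 and 306 per library. Of 5 genes of later tissues, myl7, mylpfa and fabp10a had no row, and ckma and hbbe1.1 had means of 1.35 and 0.412 according to the authors' deposited table. The log2 fold change of cdk9 itself was 6.79 (SE 0.408) at the 256-cell and 5.88 (SE 0.389) at the 1024-cell stage under CDK9 according to the authors' deposited table. Of the mean normalized counts summed over all genes, 96.8% belonged to mitochondrial genes.

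The nuclear respiratory chain genes were sparsely covered. Their mean normalized counts per library, averaged by the authors over all libraries, ran between 0.470 and 113, with a median of 5.95, against a median of 9.79 over the 17098 nuclear genes according to the authors' deposited table. The median member thus stood for about 17.8 normalized reads in 3 libraries. Only sdha reached a mean of 50, a level reached by 13.8% of nuclear genes, and 37 members lay under a mean of 5. Members were short, with a median exon length of 1036.5 bases, against 2383 bases for nuclear genes. Per kilobase of exon, the median level of members was 5.35 normalized counts, against 4.44 for nuclear genes. Levels below are means over all libraries divided by exon length, since values per group were not used here. No group went without s4UTP, so unlabelled RNA carried through the capture cannot be told apart from new RNA in these levels.

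sdha, the flavoprotein subunit of complex II that oxidises succinate, was the most abundant member, with a mean normalized count of 113 and 39.8 per kilobase. It lies on chromosome 19, at 7276060 to 7291733 in GRCz11, with 15 exon blocks. Its partner subunits did not share this level: the iron-sulfur subunit gene sdhb had 6.24 normalized counts per kilobase. The membrane anchor gene sdhc had 0.571 and was the lowest of the 4 genes, with a mean of only 0.590.

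Within complex I, levels per kilobase spanned a 77.9-fold range. The accessory membrane-arm subunit gene ndufb10 was highest at 36.3 normalized counts per kilobase, followed by the accessory gene ndufa7 at 26.0. The lowest was ndufa1, an accessory membrane subunit gene, at 0.466. Its mean normalized count was only 0.575, so the lower end of the range rests on very few reads. By total reads, ndufs8a, which encodes a core subunit that holds iron-sulfur clusters, led complex I with a mean of 32.4, and the accessory gene ndufv3 had a mean of 28.5. A range of levels can widen with the number of genes, and ranges were not compared by a test. Complex III, with 8 genes, had the smallest range of the complexes, 2.96-fold, and its lowest mean was 1.71. Its leading genes per kilobase were uqcrh, the hinge protein gene, at 6.72 and uqcrc2b, a core protein gene, at 4.84. By total reads the Rieske iron-sulfur protein gene uqcrfs1 led complex III with a mean of 12.1, against 9.56 for uqcrc2b.

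Among genes with a row, complex IV had the highest median level of the 5 complexes, 10.4 normalized counts per kilobase. Most symbols without a row belong to this complex, such as cox4i2, cox6b1, cox8a and ndufa4, so the median covers only part of it. Complex IV was led by cox7a2l, which encodes a factor that joins complexes III and IV into supercomplexes, at 23.2, and by the subunit gene cox6b2 at 17.2. The injected libraries enter these means. At the 1024-cell stage cox7a2l had log2 fold changes of 2.33 under CDK9 and 2.07 under MiR430 according to the authors' deposited table. Its level in untreated embryos alone is thus not known here. By total reads cox6b2 had a mean of 27.2 and ndufa4l 19.0. ndufa4l carries a complex I name but its mammalian counterpart belongs to complex IV. In ATP synthase, the rotor shaft gene atp5f1c reached 25.2 and the membrane subunit gene atp5meb 25.0 normalized counts per kilobase, while the catalytic head genes atp5fa1 and atp5f1b had the most reads, with means of 42.3 and 37.3. The median of the assembly and regulatory genes was 3.31 normalized counts per kilobase. They were led by atp5if1a, which encodes an inhibitor of ATP hydrolysis, at 15.3 and the complex I assembly gene ndufaf4 at 12.0 per kilobase. The assembly gene ndufaf7, a methyltransferase gene, led them by total reads with a mean of 18.7, against 9.56 for ndufaf4.

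Levels of the 2 copies, as means over untreated and injected libraries together, were compared for 7 pairs of duplicated genes. The ratios within each group of embryos are thus not known here. Of the membrane subunit pair atp5meb and atp5mea, the first had 25.0 and the second 2.90 normalized counts per kilobase, an 8.63-fold difference. The pair atp5if1a and atp5if1b differed 6.03-fold, atp5mc3b and atp5mc3a 2.95-fold, and ndufab1a and ndufab1b 2.48-fold. The copies were closer for ndufa9a and ndufa9b at 1.51-fold, uqcrc2b and uqcrc2a at 1.32-fold, and cox5ab and cox5aa at 1.09-fold. Reads of near-identical stretches may be split between copies, and no spread over libraries stands behind these ratios. Some copies had few reads, with mean normalized counts of 1.61 for atp5mea, 2.08 for atp5if1b and 1.93 for ndufa9b. ndufab1a and ndufab1b had means of 2.59 and 1.75, and their ratio also reflects exon lengths of 918 and 1537 bases.

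The mitochondrially encoded partners lay far above the nuclear genes of the same complex in these counts, where unlabelled RNA cannot be told apart. The 7 mitochondrially encoded subunit mRNAs of complex I had a median of 450059 normalized counts per kilobase, 64295 times the median of the nuclear complex I genes. For complex IV the ratio of these medians was 56925 over 3 mitochondrial mRNAs, and mt-co1 reached 996479 per kilobase. Within ATP synthase, mt-atp6 and mt-atp8 overlap on the mitochondrial genome, and their values of 1020080 and 52192 per kilobase are uncertain, since reads in the overlap may be lost or split.

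**Figure D1:**
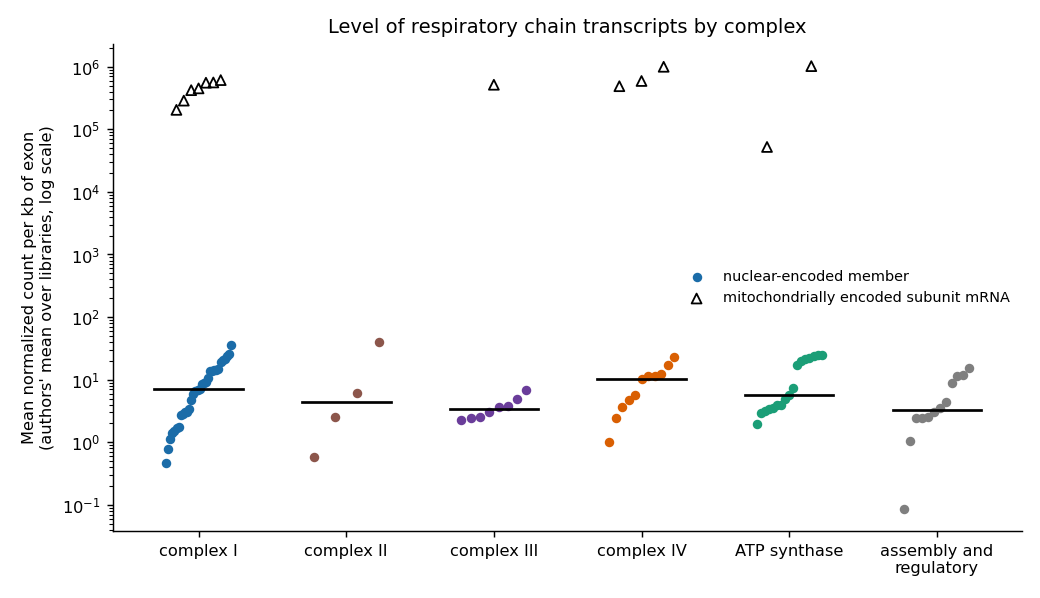
Mean normalized count per kilobase of exon on a log axis for each nuclear-encoded member (filled circles, coloured by complex), with the median of each group as a bar and the mitochondrially encoded subunit mRNAs as open triangles. Medians of the nuclear genes lie between 3.31 and 10.4, and the mitochondrial mRNAs lie between 52192 and 1020080.

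How many members could be tested depended on these levels. The authors' tables give an adjusted p only above a mean that differs by comparison. That mean is over all libraries, so a gene high in an injected group can gain an adjusted p through that group. The lowest mean with an adjusted p was 8.45 for CDK9 at the 256-cell stage, 3.64 for CDK9 at the 1024-cell stage, 2.86 for MiR430 at the 256-cell stage and 5.11 for MiR430 at the 1024-cell stage according to the authors' deposited table. Accordingly 32, 54, 61 and 46 of the 84 members had an adjusted p in these comparisons. In all 4 comparisons 32 members were tested, and 23 were tested in none. Among the untested were the complex II anchor gene sdhc and the complex III genes uqcrb, uqcrq and uqcr10. The ATP synthase stalk gene atp5pd had no p in any comparison despite a mean of 10.4 according to the authors' deposited table.

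**Figure D2:**
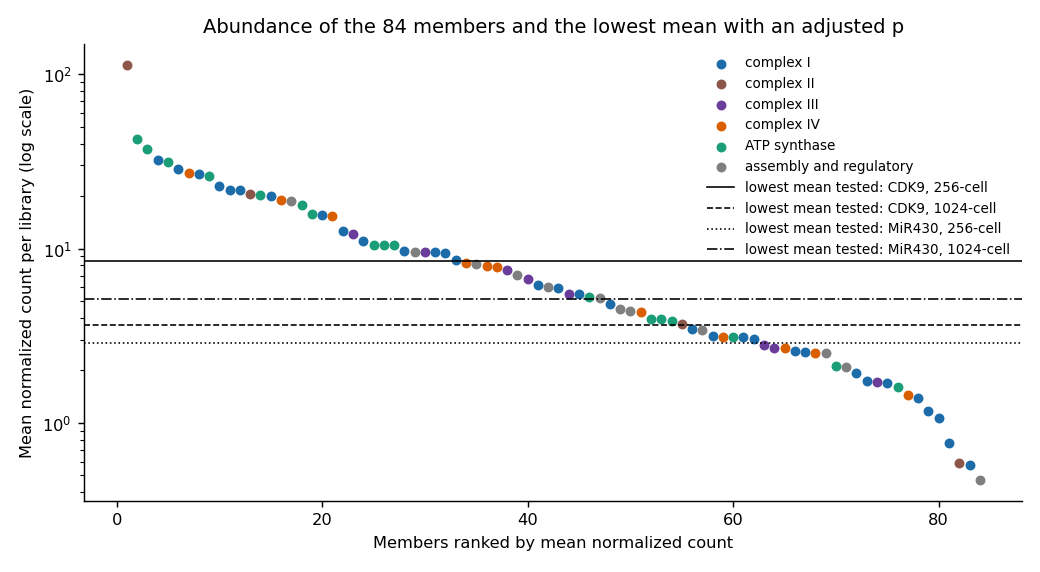
Mean normalized count per library of the 84 members, ranked from the highest to the lowest and coloured by complex, on a log axis. Horizontal lines give the lowest mean with an adjusted p in each comparison, between 2.86 and 8.45. The top point is sdha at 113.

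The first question was whether RNA of these genes in the enriched libraries differed in 256-cell embryos with extra CDK9. Among the respiratory chain genes, ndufa10 rose and no other member passed the test. ndufa10 encodes an accessory subunit of complex I with the fold of a nucleoside kinase. It lies on chromosome 9 at 23740506 to 23747409 (GRCz11, minus strand, 10 exon blocks), with a mean normalized count of 20.1. Its log2 fold change was 2.73 (SE 2.24 with adjusted p = 0.0263) according to the authors' deposited table. The SE is nearly as large as the estimate, and the deposited estimates appear to be shrunken towards 0. With the statistics recentred on their median over all genes the adjusted p of ndufa10 was 0.0669, so the call did not hold there.

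A count of 1 risen and 0 fallen among 32 tested members compares with 5.04% risen and 0.373% fallen among the 9124 genes tested according to the authors' deposited table. Over tested genes with a mean under 50, which covers every tested member but sdha, 2.51% rose. The members' share is thus near the background. Since whole embryos were measured, fewer cells that express a gene and less RNA per cell cannot be told apart. With recentred statistics 302 genes rose and 65 fell over the whole table, against 460 and 34 as deposited.

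The other members at this stage gave estimates near 0 or with wide errors. Above 0 were 18 of 32 tested members (56.3%), against 58.4% of all genes tested, and the median log2 fold change was 0.02 in members and 0.07 in all genes according to the authors' deposited table. At an unadjusted p under 0.05, 6 of 83 members were higher and 1 was lower, or 7.23% and 1.20%, against 7.98% and 2.04% of all genes with a p. In complex I the matrix-arm gene ndufa5 had an estimated log2 fold change of 1.49 (SE 1.89 with adjusted p = 0.0843) according to the authors' deposited table. The 5 measured core genes of complex I, which carry electrons from NADH to ubiquinone, spanned only -0.08 to 0.09 on the log2 scale, with ndufv1, the NADH-binding subunit gene, at -0.08 (SE 0.51) according to the authors' deposited table.

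Complex IV held both directions at the 256-cell stage under CDK9. The regulatory subunit gene cox4i1 had 1.48 (SE 1.49 with unadjusted p = 0.00371) and cox5aa, for subunit 5A, had -0.90 (SE 1.45 with unadjusted p = 0.0192) on the log2 scale according to the authors' deposited table, and neither had an adjusted p. cox6b2 had an estimated log2 fold change of 1.07 (SE 0.99 with adjusted p = 0.0857), and cox7a2l 0.60 (SE 0.77 with adjusted p = 0.265), according to the authors' deposited table. In ATP synthase the smallest p belonged to the catalytic subunit gene atp5f1b, at 0.94 (SE 0.79 with adjusted p = 0.103) according to the authors' deposited table. The stalk gene atp5po had -0.55 (SE 0.75 with adjusted p = 0.305) there, so subunits of one enzyme had estimates on both sides of 0.

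Complexes II and III gave no member under an unadjusted p of 0.05. sdha and sdhb had estimated log2 fold changes of 0.45 (SE 0.47) and -0.44 (SE 0.61), with adjusted p of 0.416 and 0.41, according to the authors' deposited table. uqcrc2a, for a core protein of complex III, had 0.41 (SE 0.71 with unadjusted p = 0.109) according to the authors' deposited table. Of the assembly and regulatory genes, the smallest p was that of atp5if1a, at 0.34 (SE 0.60 with unadjusted p = 0.175), according to the authors' deposited table. These misses do not show that the genes were unchanged: an approximate 95% interval around the log2 fold change lay within a 2-fold change either way for 4 of the 32 tested members, against 1865 of the 9124 genes tested.

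In 1024-cell embryos with extra CDK9, cox7a2l rose and no other member passed. The gene lies on chromosome 12 at 25197383 to 25201576 (GRCz11, minus strand, 3 exon blocks), with a mean normalized count of 15.4. Its log2 fold change was 2.33 (SE 1.39 with adjusted p = 0.0418) according to the authors' deposited table. The call was lost with all genes tested (adjusted p = 0.0606) and with recentred statistics (adjusted p = 0.071). Thus 1 of 54 tested members rose and 0 fell, against 5.89% and 0.461% of the 11724 genes tested according to the authors' deposited table. Of tested genes with a mean under 50, 3.86% rose.

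Small unadjusted p-values lay in complex IV and ATP synthase; a difference between complexes was not tested. At an unadjusted p under 0.05, 8 of 83 members were higher and 0 lower, or 9.64%, against 9.83% higher and 2.75% lower among all genes with a p. Of these 8 genes, 4 belong to the 11 of complex IV and 4 to the 16 of ATP synthase with a p, while 0 belong to the 32 genes of complex I, the 4 of complex II, the 8 of complex III or the 12 assembly and regulatory genes. Since the total share was near the background, this split by complex only describes where a few genes fell.

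The complex IV genes were cox7a2l, cox4i1, cox5ab and cox6c. cox4i1 had an estimated log2 fold change of 1.66 (SE 1.32 with adjusted p = 0.0964) and cox5ab 1.53 (SE 1.25 with adjusted p = 0.106) according to the authors' deposited table. cox6c, a small membrane subunit gene, had 0.95 (SE 1.20 with adjusted p = 0.255), and the copy cox5aa 0.61 (SE 1.02 with adjusted p = 0.413), according to the authors' deposited table. All 7 tested genes of complex IV had an estimate above 0, with a median of 0.95. The mean that decides which genes have an adjusted p includes the CDK9 libraries, so genes high there are more easily among the tested. This count and median therefore do not show a shift of complex IV. Among all genes tested 55.9% lay above 0, with a median of 0.04. Within complex IV, cox6b2 was at 0.24 (SE 0.58) and ndufa4l at 0.02 (SE 0.38) according to the authors' deposited table. The other complex IV members had no adjusted p: cox7a2a was at 0.37, cox7b at 0.28, cox6a1 at -0.02 and cox7c at -0.18. The means behind cox4i1, cox5ab, cox5aa and cox6c were 7.97, 8.27, 7.80 and 4.31 normalized counts, so each rests on few reads.

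The ATP synthase genes were the membrane subunit gene atp5mf, the rotor genes atp5f1c and atp5f1d, and atp5md, which encodes a small subunit of the enzyme's dimer interface. atp5mf had an estimated log2 fold change of 1.90 (SE 1.70 with adjusted p = 0.0847) and atp5f1c 1.27 (SE 0.99 with adjusted p = 0.106) according to the authors' deposited table. The means behind atp5mf, atp5f1d and atp5md were 3.94, 3.95 and 3.12 normalized counts, so each rests on few reads. Other genes of the same enzyme had estimates nearer 0: atp5fa1 had 0.09 (SE 0.38), atp5f1b 0.04 (SE 0.39) and the ring subunit gene atp5mc1 -0.16 (SE 0.37) on the log2 scale according to the authors' deposited table. The median of the 13 tested ATP synthase genes was 0.17.

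In complex I the smallest p belonged to the accessory gene ndufa9a, at 0.85 (SE 1.17 with adjusted p = 0.297), and ndufa10 was at 0.69 (SE 1.09 with adjusted p = 0.37), according to the authors' deposited table. Of 18 tested complex I genes 13 had an estimate above 0, with a range of -0.33 to 0.85 and a median of 0.16. Among the core genes, ndufv1 was at 0.14 (SE 0.51) and ndufv2, an iron-sulfur subunit gene, at 0.32 (SE 0.49) according to the authors' deposited table. In complex II, sdhb was at -0.23 (SE 0.57 with adjusted p = 0.697) and sdha at -0.18 (SE 0.37 with adjusted p = 0.702) according to the authors' deposited table. uqcrc2a, at 0.79 (SE 1.14 with adjusted p = 0.323), had the smallest p of complex III according to the authors' deposited table. ndufaf6, a complex I assembly gene, had the smallest p of the assembly and regulatory genes, at 0.84 (SE 1.38 with unadjusted p = 0.0563), according to the authors' deposited table.

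Over all 54 tested members the median log2 fold change was 0.16, against 0.04 over all genes tested, and 36 (66.7%) lay above 0, against 55.9% of all genes according to the authors' deposited table. No test of these differences was run. An approximate 95% interval lay within a 2-fold change either way for 9 of the 54 members, against 3421 of the 11724 genes tested.

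**Figure D3:**
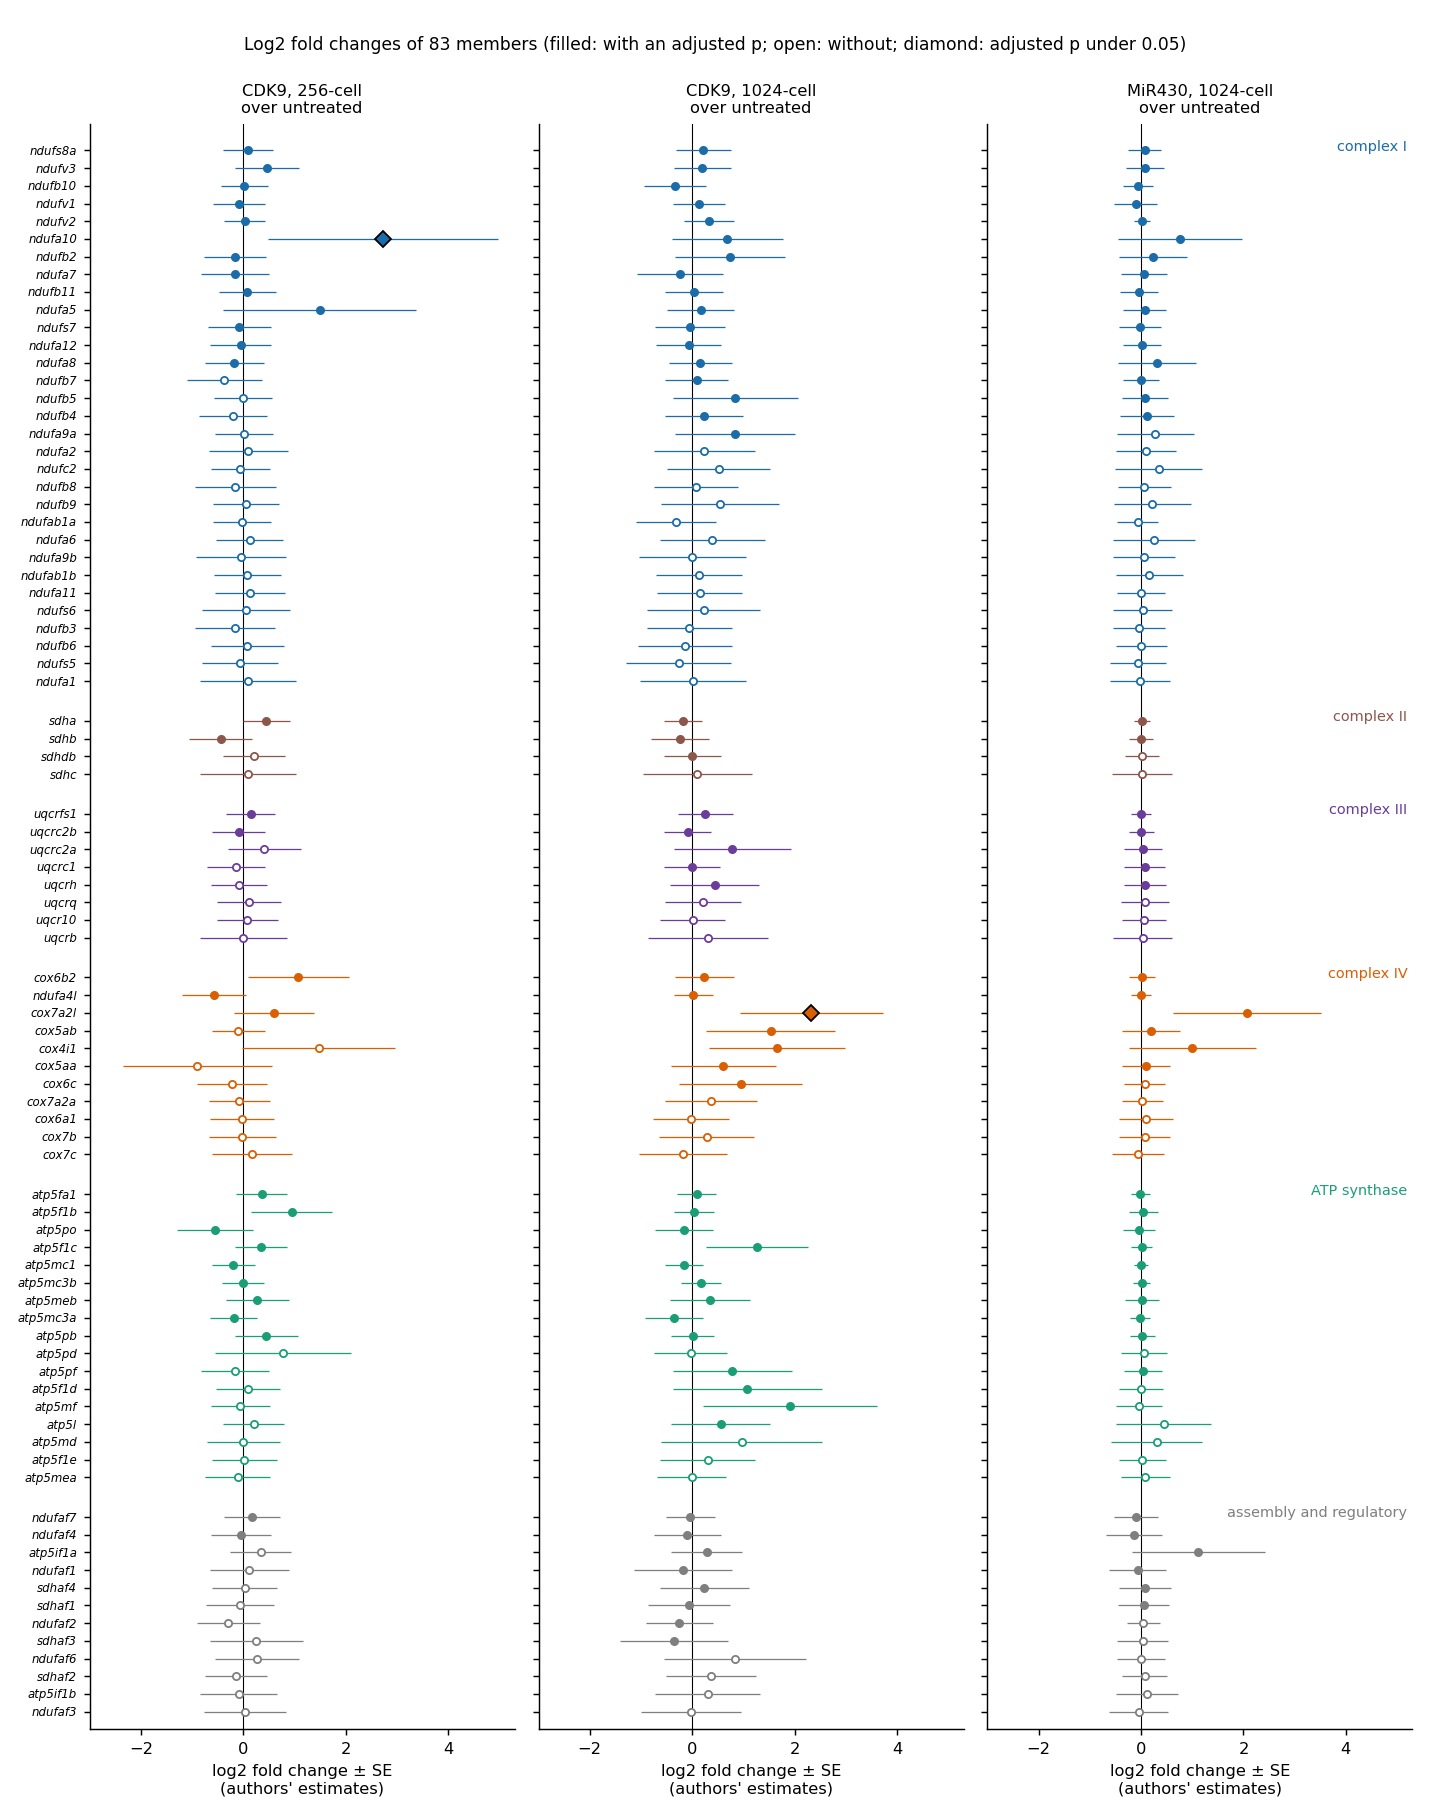
Log2 fold change with its SE (horizontal bars) of 83 members, grouped by complex and ordered by abundance, for CDK9 at both stages and MiR430 at the 1024-cell stage over untreated embryos. Filled points have an adjusted p, open points do not, and diamonds mark ndufa10 at 2.73 and cox7a2l at 2.33, the 2 members that passed. MiR430 at the 256-cell stage is left out because its member estimates ran only from -0.01 to 0.02.

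Whether the CDK9 response of members differed between stages was tested through the difference of their log2 fold changes over the combined SE. Of 32 members tested at both stages 0 passed (smallest adjusted p = 1.00) and 0 had an unadjusted p under 0.05, while 18 of 9124 genes (0.197%) passed. With signed z statistics in place of fold changes the smallest adjusted p of a member was 0.576. The largest differences were those of ndufa10 and cox7a2l, in opposite directions. cox7a2l had 0.60 at the 256-cell and 2.33 at the 1024-cell stage, a difference of 1.73 (SE 1.59 with unadjusted p = 0.278), from the authors' deposited table. ndufa10 had 2.73 at the 256-cell and 0.69 at the 1024-cell stage, a difference of -2.05 (SE 2.49 with unadjusted p = 0.411), from the authors' deposited table. A call at 1 stage only was therefore not shown to be a difference between the stages. The test is approximate, because estimates that appear to be shrunken enter it. Their SEs can be wide for their p: ndufa10 at the 256-cell stage had 2.73 (SE 2.24) with a deposited unadjusted p of 0.00108. Members could therefore hardly pass, and the 0 of 32 does not show equal responses at the 2 stages.

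MiR430 injection gave no called member at either stage. At the 256-cell stage 0 of 61 tested members passed, against 0.0566% of the 12373 genes tested, and 1 member was higher and 2 were lower at an unadjusted p under 0.05, against 1.46% and 1.43% of all genes with a p. These 3 genes were the assembly genes ndufaf6, higher with an unadjusted p of 0.00887, and sdhaf1, lower with 0.0331, and the complex I accessory gene ndufb7, lower with 0.0173, according to the authors' deposited table. sdhaf1 overlaps another gene on its strand, so its reads may be shared. In the other complexes the smallest unadjusted p was 0.752 for sdha, 0.243 for uqcrq, 0.0915 for cox4i1 and 0.132 for atp5pf according to the authors' deposited table. Log2 fold changes of members ran from -0.01 to 0.02 in this comparison, and sizes cannot be read from them, since the median over all genes tested was also 0.00 with a median SE of 0.02.

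At the 1024-cell stage 0 of 46 tested members passed under MiR430, against 1.07% of the 10748 genes tested. The smallest adjusted p was again that of cox7a2l, with an estimated log2 fold change of 2.07 (SE 1.44 with adjusted p = 0.0642) according to the authors' deposited table. cox4i1 had 1.00 (SE 1.24 with adjusted p = 0.188), atp5if1a 1.11 (SE 1.30 with adjusted p = 0.162) and ndufa10 0.76 (SE 1.20 with adjusted p = 0.248) according to the authors' deposited table. Together with atp5l and atp5md, subunit genes without an adjusted p here, these made 6 members higher and 0 lower at an unadjusted p under 0.05, or 7.23%, against 6.01% higher and 1.65% lower among all genes with a p. uqcrh at 0.08 (SE 0.42 with adjusted p = 0.907) and sdha at 0.02 (SE 0.16 with adjusted p = 0.967) had the smallest p of complexes III and II according to the authors' deposited table. Estimates were above 0 in 32 of 46 tested members (69.6%), against 55.2% of all genes tested, with medians of 0.02 and 0.01.

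The comparisons of 1 stage share their untreated libraries. At the 1024-cell stage cox7a2l had 2.33 under CDK9 and 2.07 under MiR430, and cox4i1 had 1.66 under CDK9 and 1.00 under MiR430, on the log2 scale according to the authors' deposited table. The part of the shared untreated libraries was not tested, because values per library are not used here. By contrast atp5mf had 1.90 under CDK9 and -0.04 (SE 0.45) under MiR430, and cox5ab 1.53 under CDK9 and 0.19 (SE 0.57) under MiR430, according to the authors' deposited table. The difference between the injections was not tested.

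**Figure D4:**
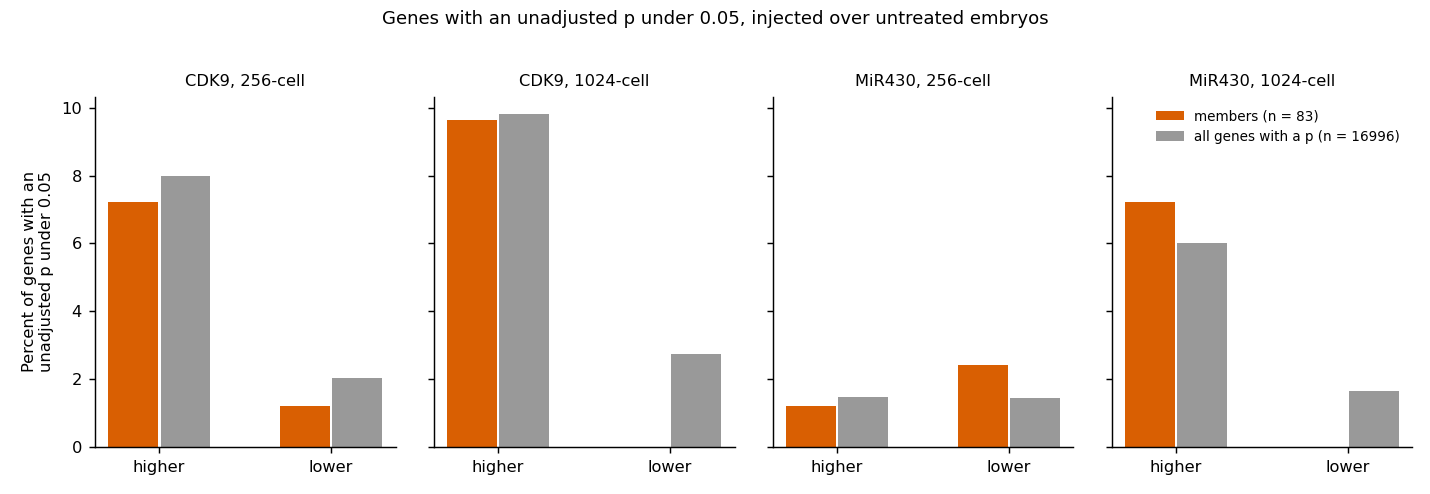
Percent of members (orange) and of all genes with a p (grey) that were higher or lower than in untreated embryos at an unadjusted p under 0.05, for the 4 comparisons. Members stood at 7.23% and 9.64% higher under CDK9 at the 256-cell and 1024-cell stages, against 7.98% and 9.83% of all genes.

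In other lists of mitochondrial energy metabolism, 4 genes were called, all at the 1024-cell stage under CDK9, where 5.89% of all genes tested rose. Only the lists that held a called gene are described here, and the larger number of lists without one follow below. Whether any list differed from all genes was not tested. In the list of regulators of mitochondrial gene expression 2 of 15 tested genes rose and 0 fell. pprc1, a coactivator related to PGC-1 that promotes genes for respiration, had an estimated log2 fold change of 2.02 (SE 0.66 with adjusted p = 0.00728) and a mean of 232 according to the authors' deposited table. yy1a, for the transcription factor YY1, had 2.55 (SE 1.82 with adjusted p = 0.0384) and a mean of 11.2 according to the authors' deposited table. Among 14 tested complex IV assembly factors 1 rose, higd1a, a hypoxia-inducible protein gene, at 2.21 (SE 1.02 with adjusted p = 0.0261) according to the authors' deposited table. Among 4 tested ATP synthase assembly factors 1 rose, atpaf1, for a chaperone of the catalytic head, at 2.36 (SE 1.51 with adjusted p = 0.0452) according to the authors' deposited table. Its mean was 8.80. Estimates of these 4 genes ran from -0.95 to 2.36, and at an unadjusted p under 0.05 1 was higher and 1 lower. Among all genes with a p, 9.83% were higher and 2.75% lower. Under MiR430 at this stage, with the same untreated libraries, pprc1 had an estimated log2 fold change of 0.38 (SE 0.64 with adjusted p = 0.334) according to the authors' deposited table.

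No gene was called in any of the 4 comparisons among 8 further complex I assembly factors (such as ecsit, mean 44.1), 7 further complex III genes (such as uqcc3, mean 16.8), 23 electron carrier and coenzyme Q genes (such as coq10b, mean 64.9), 20 genes of the tricarboxylic acid cycle (such as sucla2, mean 60.8), 72 mitochondrial ribosomal proteins (such as mrps18a, mean 80.1) and 13 mitochondrially encoded mRNAs. Many of these had no adjusted p and so could not be called: at the 256-cell stage under CDK9, where 5.04% of all genes tested rose, those tested numbered 2 of the 8 complex I factors, 5 of the 7 complex III genes, 11 of the 23 carrier and coenzyme Q genes, 13 of the 20 cycle genes, 34 of the 72 ribosomal proteins and all 13 mitochondrial mRNAs. At the 1024-cell stage under CDK9 they numbered 3, 6, 17, 18, 53 and 13, and 5.89% of all genes tested rose. Estimates among the uncalled genes were not all small, with a range of -1.37 to 1.15 over the tested mitochondrial ribosomal proteins at that stage. Over the 6 tested further complex III genes the range was -1.80 to 0.45, and the smallest adjusted p was 0.0945. At an unadjusted p under 0.05 in CDK9 embryos of the 1024-cell stage, 3 of 72 mitochondrial ribosomal protein genes were higher and 3 lower. This is 4.17% each way, against 9.83% higher and 2.75% lower among all genes with a p. The 13 mitochondrially encoded mRNAs had a median log2 fold change of -0.10, and mt-co1 was at -0.06 (SE 0.28), according to the authors' deposited table.

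Cytosolic ribosomal proteins, another set of widely expressed genes, gave other counts mainly at the 1024-cell stage. At the 256-cell stage under CDK9 3 of 45 tested genes rose, against 1 of 32 respiratory chain genes and 5.04% of all genes tested. Under MiR430 at the 256-cell stage 0 of 78 passed, against 0.0566% of all genes tested. At the 1024-cell stage under CDK9 15 of 72 tested genes rose, with a median log2 fold change of 0.84, against 1 of 54 and 0.16 for the respiratory chain genes and 5.89% and 0.04 for all genes tested. rps19 had 3.16 (SE 0.87 with adjusted p = 0.00179) according to the authors' deposited table. Under MiR430 at this stage, with the same untreated libraries, 3 of 66 tested genes rose, against 1.07% of all genes tested called either way. There 64 of the 66 had an estimate above 0, with a median of 0.32. rps19 had 2.83 (SE 0.88 with adjusted p = 0.0129) under MiR430 according to the authors' deposited table, so higher estimates were not particular to CDK9. Their median mean normalized count was 9.32, against 5.95 for the respiratory chain genes, and the difference between the sets was not tested.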

How the data were processed

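Enriched SLAM-seq libraries of whole embryos (18, in 6 groups) were made with a stranded kit without polyA selection, per the labels' protocols. Per the submitters' processing notes, the build was GRCz11 and the tools named are DESeq2, featureCounts, HISAT, Picard, SAMtools and Trimmomatic. Their versions are not given in the sources used. The authors deposited a count table, of which only symbols, coordinates and exon lengths were used, since its 18 count columns match no sample label, and 4 comparison tables. In those, per the file headers, baseMean is the authors' mean normalized count (a signal over all libraries, identical in the 4 tables), followed by the deposited log2 fold change, its standard error, and the deposited p-value and adjusted p-value. Many log2 fold changes near 0 stand beside small p-values, so the estimates appear to be shrunken.

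A gene was called at a deposited adjusted p under 0.05, as adjusted by Benjamini-Hochberg over all genes with one. In the authors' own marking (adjusted p under 0.01, absolute log2 fold change above 2) 0 members appear. Depth per library was not used. The stage difference was computed here and adjusted over 9124 genes, after a check on simulated data, with Python 3.11.15, numpy 2.4.6, pandas 2.3.3, scipy 1.17.1 and matplotlib 3.10.9. The simulated estimates were drawn without shrinkage, so that check does not cover shrunken estimates. All 84 gene IDs matched the reference names. Members and lists were chosen with earlier results of these data known. Named genes were called members, the 2 most abundant per complex (by count and per kilobase), the smallest p per complex without a call, and up to 4 genes per list. Members with an unadjusted p under 0.05, and others singled out as contrasts, were named after their values were seen. Some items are not reported here.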

Additional observations from a re-analysis of the deposited data

How the results depend on the processing

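Both calls were marginal. Under CDK9 at the 256-cell stage 1 member was called as deposited and 1 without a filter, but 0 by the authors' own call rule, 0 with a mean of at least 50 (where sdha is the only member tested) and 0 with recentred statistics. The adjusted p of ndufa10 was 0.0489 without a filter, so its range over the settings that tested it was 0.0263 to 0.0669. At the 1024-cell stage the count of 1 fell to 0 under each of these 4 settings, and the adjusted p of cox7a2l ranged from 0.0418 to 0.071. Counts of 0 under MiR430 and for the stage difference stayed at 0 in all settings run. Under CDK9 the members' median log2 fold change at the 256-cell stage was 0.02 as deposited, 0.01 over all members with a p, -0.05 with the median of all genes subtracted and 0.45 with a mean of at least 50, which is the value of sdha alone. At the 1024-cell stage these medians were 0.16, 0.16, 0.13 and -0.18, so the sign turned for sdha alone. By the authors' own rule 232 and 322 genes were called under CDK9 over the whole table, against 494 and 744 as deposited.

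No paired analysis was possible because the 18 count columns match no sample label, and the fits without each replicate were likewise not run. Members' means were low, with 83 of 84 under 50, and depth per library was not used.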

Other observations

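Neighbouring genes were listed for each member. Within 10000 bases, 71 of 84 members had another measured gene, and 11 overlapped one, 4 of them on the same strand (ndufb11 with rhoaa, ndufb3 with usp37, atp5pb with eps8l3b, and sdhaf1 with a clone-named gene). Of the 127 neighbours listed, many without an adjusted p, 6 near 5 members were called under CDK9, and none of these 5 members was called. sec31b rose at the 256-cell stage. At the 1024-cell stage nkap, commd9 and rpl13a rose, and nprl2 and snu13a fell. Of the 5, ndufa1, ndufb8 and atp5if1b had no adjusted p in the comparison where their neighbour was called and so could not be called. Over all genes tested 5.04% rose and 0.373% fell at the 256-cell stage, and 5.89% rose and 0.461% fell at the 1024-cell stage. atp5if1b lies 367 bases from rpl13a, on the same strand, which rose by 3.38 on the log2 scale at the 1024-cell stage (SE 0.95 with adjusted p = 0.00187) according to the authors' deposited table, whereas atp5if1b had 0.30 (SE 1.03) and no adjusted p. uqcrc1 lies 284 bases from nprl2, on the other strand, which fell by 4.09 at the 1024-cell stage (SE 1.59 with adjusted p = 0.0037) according to the authors' deposited table, whereas uqcrc1 had -0.00 (SE 0.55 with adjusted p = 0.998).

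Neighbours of the 2 called members were mostly untested. ndufa10 lies 724 bases from faima on the opposite strand, which had -0.24 (SE 0.75) at the 256-cell stage according to the authors' deposited table, without an adjusted p. parp9, on the same strand at 6866 bases, had -0.07 (SE 0.54 with adjusted p = 0.911) there. The only measured gene in the window around cox7a2l was kcng3 at 7793 bases, which had no adjusted p under CDK9 at either stage.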
